A study of Homo sapiens with 12 samples.

Results

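The 34 genes described here are direct transcriptional targets of p53, listed by name and sorted by role into feedback on p53, cell cycle and stress kinases, apoptosis, death receptors, DNA repair, metabolism, and autophagy and RNA control. All 34 had an ID among the 48162 gene IDs of the count tables, and all 34 passed the filter on low counts in every comparison. They were followed in poly(A) RNA of IMR90 cells, a strain of normal human lung fibroblasts grown in 2% oxygen, in 4 groups of 3 libraries. Control cells carried the empty retrovirus (pBABE-Control), RAS cells an oncogenic HRAS (pBABE-HRASG12V) that drives these fibroblasts into senescence, and RAS/shDOT1L cells the same oncogene with a hairpin against DOT1L (pLKO.1-shDOT1L). DOT1L OE cells carried the human DOT1L cDNA (MSCB-hDot1lwt) and no oncogene. DOT1L is the methyltransferase of H3K79, a histone mark found along transcribed genes. Selection lasted 4 days in every group, with puromycin at 3 µg/mL in control, RAS and RAS/shDOT1L and with blasticidin at 1 µg/mL in DOT1L OE, so the drug and DOT1L OE cannot be told apart. The knockdown may rest on 1 hairpin, since the labels do not say which of the study's hairpins against DOT1L was used. They also name no control hairpin in the RAS or control cells. The study's legends and methods differ on whether such libraries are technical or biological replicates, so the p-values cover the spread among the 3 libraries of a group, which could be technical.

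p53 is a transcription factor that is kept scarce by the ubiquitin ligase MDM2 and accumulates after DNA damage or oncogene activation. It binds a pair of short palindromic half-sites near its targets, whose products arrest the cell cycle, repair DNA, shift metabolism or trigger apoptosis, and several of which feed back on p53 itself. In fibroblasts with an activated oncogene, p53 and its target CDKN1A, an inhibitor of cyclin-dependent kinases, take part in the arrest of senescence.

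The promoter of a p53 target can hold the binding sequence itself, so promoter windows (250 bases before to 50 bases after each RefSeq start site, GRCh38.p14) were searched on both strands for the 10-base p53 half-site, here the consensus known by that name with no mismatch. Windows were at hand for 28 of the 34 genes, and 7 of the 28 (25.0%) held a half-site, beside 8.06% of all 27305 genes with a window. A pair of half-sites at most 13 bases apart occurred in 1 member, DDB2, with 1 base between them, and in 10 of all 35116 windows. Only these windows were searched, so every site found lies near a start of transcription. The sequences are given 5′ to 3′ along the gene, and capitals mark the half-sites.
DDB2: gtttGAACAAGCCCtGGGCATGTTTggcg
SESN1: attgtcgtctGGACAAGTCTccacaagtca
FAS: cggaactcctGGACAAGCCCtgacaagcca
AEN: agtcggagccGGGCTTGCCCgggcatgtgg
EI24: cgtgcggcccGGGCATGCCCagtgcgggcg
FDXR: gggcaggagcGGGCTTGCCCtgcggagcag
PLK2: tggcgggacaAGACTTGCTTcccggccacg
The DDB2 stretch lies at chr11:47214975-47215003 (plus strand), with the pair at bases 6 to 26 after the start site. The SESN1 stretch lies at chr6:109009018-109009047 (minus strand), with the half-site 49 to 40 bases before the start. The FAS stretch lies at chr10:88991299-88991328 (plus strand), with the half-site 122 to 113 bases before the start. The AEN (chr15:88621296-88621325, plus strand), EI24 (chr11:125569457-125569486, plus strand) and FDXR (chr17:74872986-74873015, minus strand) half-sites lie within 34 bases before the start. The PLK2 stretch lies at chr5:58460199-58460228 (minus strand), with the half-site 132 to 123 bases before the start. A match is a description of the letters and not a mapped binding site, and windows of this size miss sites in introns or distant enhancers.

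The libraries matched their labels in the genes that were manipulated. Library totals ran from 16128055 to 19503457 counts. DOT1L stood at 31.7 ± 2.34 CPM (counts scaled to library size with TMM factors, mean ± SD, n = 3) in control cells, 83.8 ± 3.25 in RAS cells, 10.9 ± 0.644 in RAS/shDOT1L cells and 205 ± 9.13 in DOT1L OE cells. HRAS stood at 86.0 ± 2.83, 499 ± 8.29, 274 ± 12.8 and 80.4 ± 5.59 CPM in the same order. RAS/shDOT1L cells thus also carried 1.80-fold less HRAS mRNA than RAS cells (edgeR, adjusted p = 3.87e-16), and its part in the knockdown comparison was not tested. Reads of an introduced cDNA and of the same gene in the genome are counted together. The 8 fibroblast markers were all expressed and summed to 23903 to 24291 CPM in control cells, 17745 to 18177 in RAS cells, 17911 to 18689 in RAS/shDOT1L cells and 16729 to 17532 in DOT1L OE cells. Immune markers summed to at most 3.54 CPM, with CD68 at 0 throughout. Of the 7 epithelial markers SFTPC was at 0 throughout, and their sum (117 to 122 CPM in control, 14.5 to 21.4 in RAS, 49.9 to 62.5 in RAS/shDOT1L, 42.4 to 45.8 in DOT1L OE) came mostly from KRT19. The 4 endothelial markers measured summed to 63.9 to 69.9, 59.9 to 65.2, 23.3 to 28.5 and 136 to 149 CPM in the same order, mostly from TEK, with CDH5 at 0 outside RAS/shDOT1L. Mitochondrially encoded genes held 2.44 ± 0.117% of the counts in control cells (SD, n = 3), against 3.76 ± 0.116% in RAS cells, 2.26 ± 0.165% in RAS/shDOT1L cells and 2.33 ± 0.0884% in DOT1L OE cells. The part of these differences in the results was not tested. In bulk RNA, fewer cells of a type and less RNA per cell cannot be told apart.

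Among the 34 genes, levels per exon length in control cells ran from 0.752 ± 0.103 FPKM for MDM4 to 59.2 ± 1.31 FPKM for PHLDA3 (mean ± SD, n = 3). BAX (56.5 ± 1.21), TNFRSF10B (50.4 ± 0.652), GADD45A (42.7 ± 1.77), EI24 (40.4 ± 3.30) and CCNG1 (36.0 ± 1.48) followed PHLDA3. GADD45A and EI24, and further down FAS (1.78 ± 0.147) and PPM1D (1.90 ± 0.234), lay within their spread of each other. The place of FAS rests on its annotated length, 29313 exon bases in all, against 9408 for PPM1D. Before division by length, FAS stood at 50.0, 49.2 and 57.0 CPM in control cells and PPM1D at 19.5, 15.4 and 18.8.

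**Figure D1:**
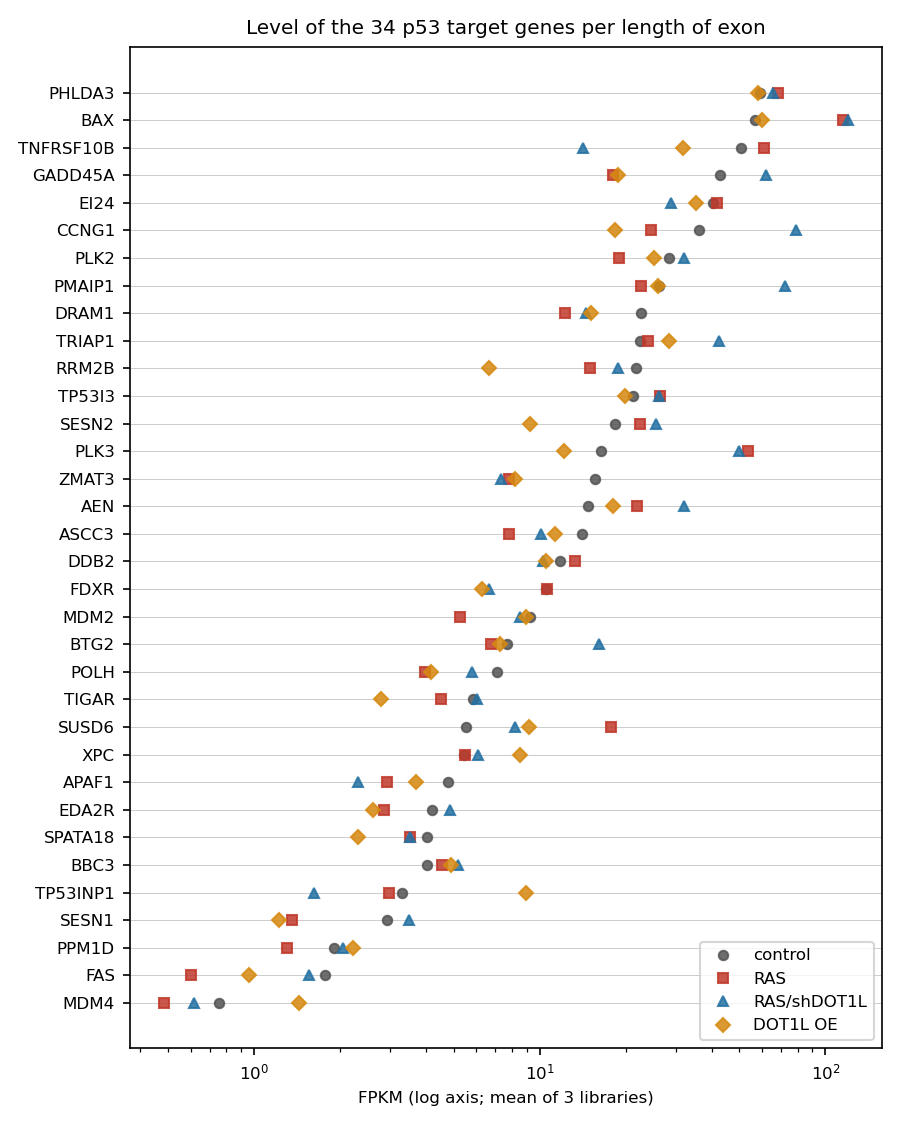
Mean level of each of the 34 p53 target genes in the 4 groups, in FPKM on a log axis, sorted by the level in control. The genes span from 0.752 FPKM (MDM4) to 59.2 FPKM (PHLDA3) in control, and the markers of the 4 groups lie close together for genes such as PHLDA3 and BBC3 and far apart for TP53INP1, PLK3, TNFRSF10B and CCNG1.

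CDKN1A, the best known target of p53, stood at 1622, 1634 and 1639 CPM in control cells, 2758, 2784 and 2792 in RAS cells, 3532, 3499 and 3482 in RAS/shDOT1L cells and 1417, 1541 and 1514 in DOT1L OE cells. No pair of groups overlapped. CDKN1A was 1.72-fold higher in RAS cells than in control (adjusted p = 4.04e-23) and 1.28-fold higher again in RAS/shDOT1L cells than in RAS cells (adjusted p = 1.08e-11), and 1.10-fold lower in DOT1L OE cells than in control (adjusted p = 0.000788). When libraries were scaled by size alone, the fall in DOT1L OE did not pass (-0.06, adjusted p = 0.102). With an offset for the GC trend of each library, described further on, the log2 change of CDKN1A went from 0.78 to 0.34 in RAS and from 0.35 to 0.62 in RAS/shDOT1L against RAS, and both passed.

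**Figure D2:**
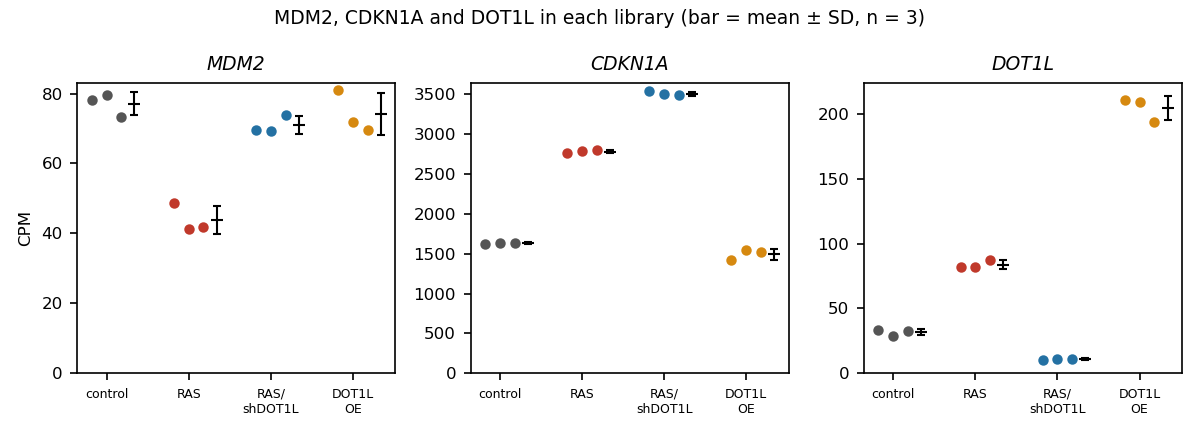
Level in CPM of MDM2, CDKN1A and the manipulated gene DOT1L, 1 point per library, with the mean and SD of 3 libraries beside each group. MDM2 is lowest in the RAS libraries, whereas CDKN1A is highest in RAS and RAS/shDOT1L.

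The question of the first comparison was what oncogenic RAS does to p53 targets. In RAS cells more of the 34 genes fell than rose: 17 (50.0%) were lower than in control and 9 (26.5%) higher, beside 32.0% and 31.9% of all 13554 genes tested (64.0% in either direction). Their median log2 change was -0.19, against -0.04 for all genes. PLK3 (3.31-fold), SUSD6 (3.26-fold) and BAX (2.05-fold) rose the most, and FAS (2.93-fold), GADD45A (2.36-fold) and SESN1 (2.15-fold) fell the most. These 3 rises and 3 falls past 2-fold are 8.82% of the members in each direction, beside 9.92% and 12.1% of all genes. In RAS against control, 14 of the 26 calls (4 higher, 10 lower) stood under all 16 alternatives. The matching share over all genes was not computed, here or in the comparisons below. These counts therefore do not set the members apart from other genes. With library size as the only scaling, which shifted the median of all genes by -0.20, 4 members were higher and 20 lower, and 36.9% of all calls were rises in place of 49.9%. Under that scaling the rises of PHLDA3 (0.02, adjusted p = 0.717), TNFRSF10B (0.09, adjusted p = 0.0728), SESN2 (0.10, adjusted p = 0.214), TP53I3 (0.12, adjusted p = 0.202) and DDB2 (-0.02, adjusted p = 0.877) in RAS did not pass, and BTG2 (-0.37), SPATA18 (-0.39) and EI24 (-0.14) passed as lower. Leaving out single libraries ended the calls of PMAIP1 (-0.17 without control replicate 1, -0.20 without control replicate 2, -0.19 without RAS replicate 1, -0.20 without RAS replicate 2 and -0.19 without RAS replicate 3), DDB2 (0.17 and 0.14 without control replicate 2 and 3, 0.18 and 0.13 without RAS replicate 2 and 3), MDM4 (-0.56 and -0.58 without control replicate 2 and 3, -0.54 without RAS replicate 3) and PPM1D (-0.37 without RAS replicate 3), and SPATA18 passed without control replicate 2 (-0.37).

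The knockdown of DOT1L in RAS cells was set against RAS cells to ask which targets follow DOT1L when the oncogene is present. More of the 34 genes rose than fell: 18 (52.9%) were higher in RAS/shDOT1L and 6 (17.6%) lower, beside 26.3% and 26.4% of all 13398 genes tested (52.7% in either direction). Their median log2 change was 0.30, against 0.03 for all genes. GADD45A (3.48-fold), CCNG1 (3.26-fold), PMAIP1 (3.23-fold), FAS (2.62-fold), SESN1 (2.62-fold) and BTG2 (2.41-fold) rose past 2-fold, which is 17.6% of the members beside 7.38% of all genes. TNFRSF10B (4.27-fold) and SUSD6 (2.15-fold) fell past 2-fold, 5.88% of the members beside 6.84% of all genes. In RAS/shDOT1L against RAS, 18 of the 24 calls (13 higher, 5 lower) stood under all alternatives. BAX passed as higher when scaled by size alone (0.15). The call of SESN2 was lost without RAS replicate 1 (0.16), RAS replicate 2 (0.21) or RAS/shDOT1L replicate 2 (0.19), that of DRAM1 without RAS replicate 1 (0.20) or RAS/shDOT1L replicate 1 (0.23), and APAF1 passed without RAS replicate 1 (-0.42).

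DOT1L overexpression without the oncogene was compared with control. Here 20 of the 34 genes (58.8%) were lower in DOT1L OE and 6 (17.6%) higher, beside 29.9% and 29.9% of all 13660 genes tested (59.9% in either direction). Their median log2 change was -0.27, against 0.01 for all genes. RRM2B (3.29-fold), SESN1 (2.42-fold), GADD45A (2.29-fold), TIGAR (2.12-fold) and SESN2 (2.00-fold) fell the most, 14.7% of the members past 2-fold beside 7.18% of all genes. TP53INP1 (2.69-fold) was the only member to rise past 2-fold, beside 9.55% of all genes. In DOT1L OE against control, 23 of the 26 calls (6 higher, 17 lower) stood under all alternatives. When scaled by size alone, PLK2 (-0.11, adjusted p = 0.103), EI24 (-0.13, adjusted p = 0.0547) and DDB2 (-0.10, adjusted p = 0.264) did not pass, and PPM1D (0.29), BBC3 (0.35) and BAX (0.15) passed as higher. The call of DDB2 was lost without control replicate 1 (-0.14) or DOT1L OE replicate 1 (-0.16), 2 (-0.17) or 3 (-0.19), while BAX passed without DOT1L OE replicate 1 (0.17) and BBC3 without control replicate 2 (0.38).

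RAS/shDOT1L cells were also set against control, to show where the targets stood relative to cells without the oncogene. In this comparison 13 of the 34 genes (38.2%) were higher and 10 (29.4%) lower, beside 27.9% and 27.6% of all 13519 genes (55.5% in either direction), with a median log2 change of 0.15 against -0.01 for all genes. PLK3 (3.10-fold), PMAIP1 (2.80-fold), CCNG1 (2.22-fold), AEN (2.18-fold), BAX (2.14-fold) and BTG2 (2.12-fold) were higher past 2-fold, and TNFRSF10B (3.53-fold), ZMAT3 (2.10-fold), APAF1 (2.05-fold) and TP53INP1 (2.01-fold) lower, beside 7.87% and 9.08% of all genes. In RAS/shDOT1L against control, 19 of the 23 calls (10 higher, 9 lower) stood under all alternatives. Library size as the only scaling shifted the median of all genes by -0.12 and the rises from 50.3% to 40.0% of all calls. Under that scaling PLK2 (0.08), PHLDA3 (0.05) and TP53I3 (0.20) did not pass, and MDM2 (-0.22), FAS (-0.29) and DDB2 (-0.30) passed as lower. Without control replicate 2 the members' median fell to 0.08, PLK2 lost its call (0.14), and BBC3 (0.50) and SPATA18 (-0.36) passed. The call of RRM2B was lost without control replicate 1 (-0.15), control replicate 2 (-0.18) or RAS/shDOT1L replicate 1 (-0.10), that of PHLDA3 without RAS/shDOT1L replicate 2 (0.14), and BBC3 passed without RAS/shDOT1L replicate 3 (0.52). The 4 comparisons share the control, RAS or RAS/shDOT1L libraries, so their values below stand side by side and are not independent.

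**Figure D3:**
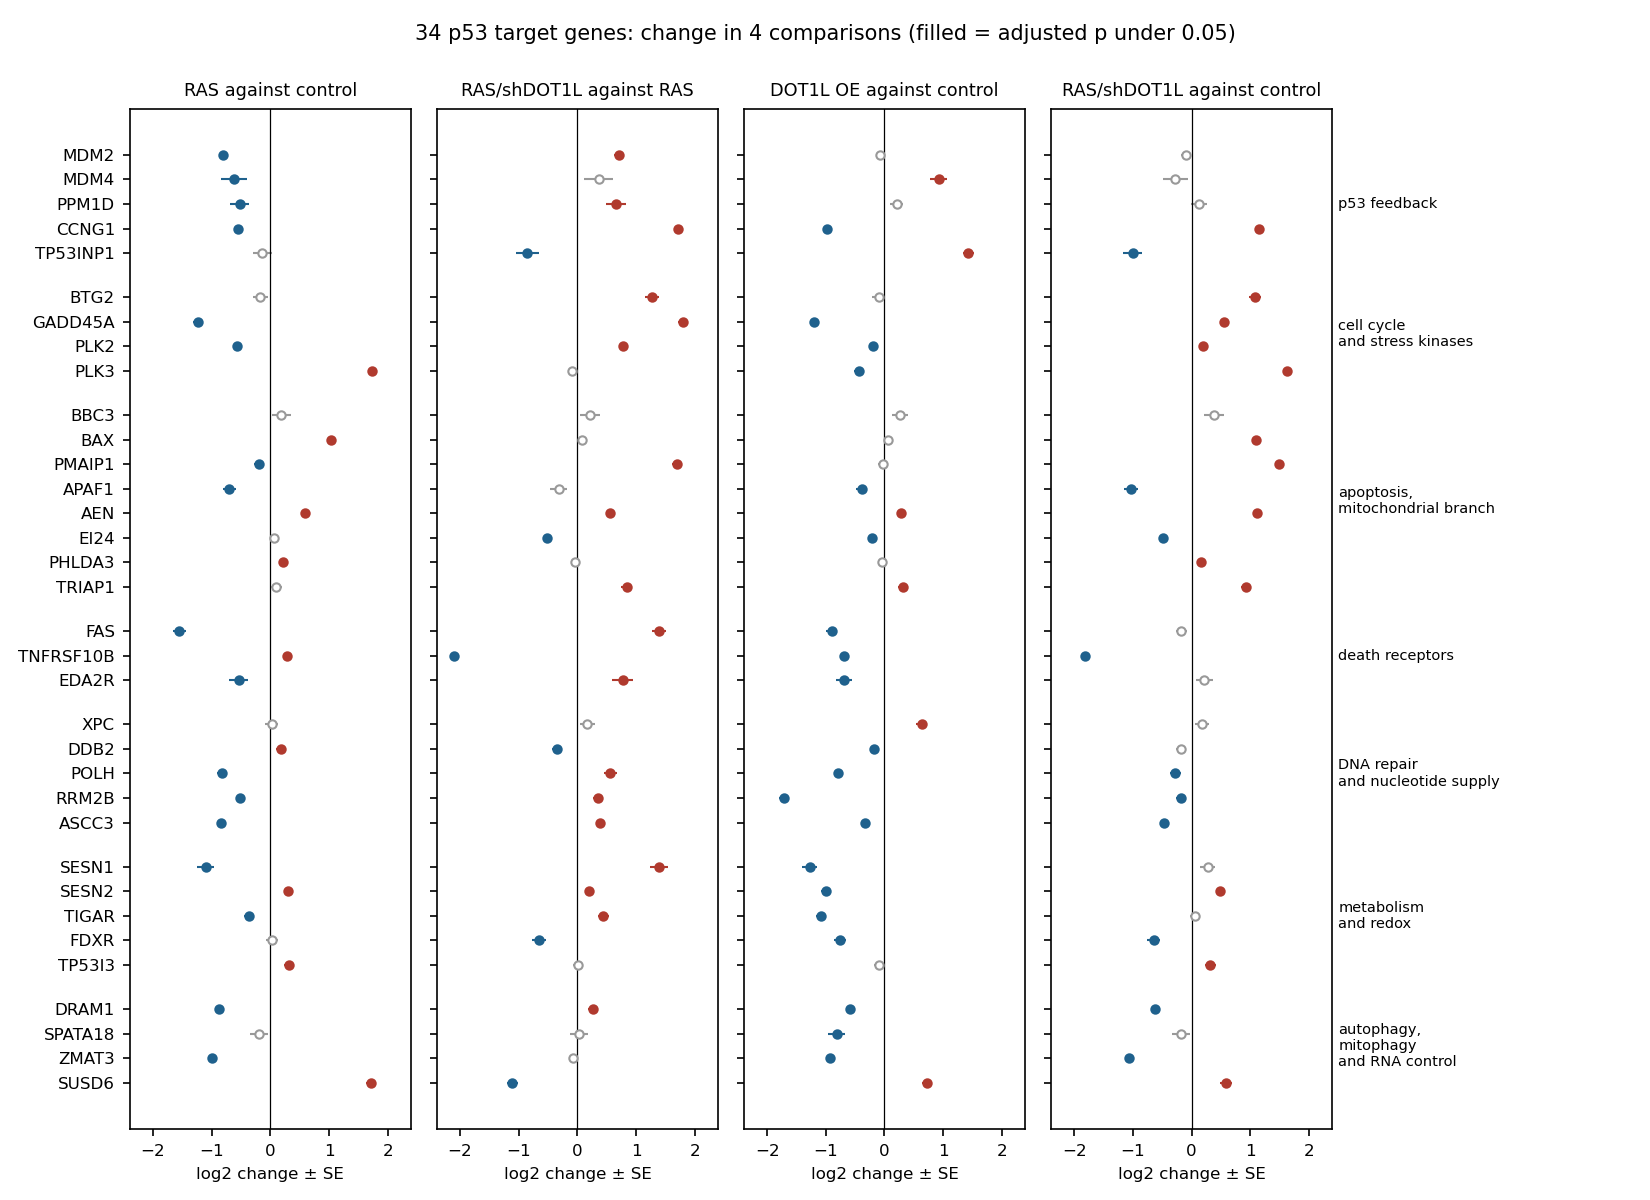
The log2 change ± SE of each of the 34 genes in the 4 comparisons, grouped by role, with filled points past an adjusted p of 0.05 (red higher, blue lower) and open points not past it. Blue points prevail in RAS against control (17 of 34) and DOT1L OE against control (20 of 34), red points in RAS/shDOT1L against RAS (18 of 34).

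Among the 5 genes that feed back on p53, 4 fell in RAS and none rose, 3 rose and 1 fell in RAS/shDOT1L against RAS, and 2 rose and 1 fell in DOT1L OE. Of all genes, 32.0%, 26.4% and 29.9% were lower and 31.9%, 26.3% and 29.9% higher in the same order, shares that apply to the role groups below as well. With the GC offset, 1 of the 4 falls in RAS, that of MDM2, still passed. Several other calls given below were also lost or turned under that offset, as listed further on. MDM2, which marks p53 for degradation, stood at 77.1 ± 3.27 CPM in control cells, 43.9 ± 4.09 in RAS cells, 71.0 ± 2.58 in RAS/shDOT1L cells and 74.1 ± 6.02 in DOT1L OE cells (mean ± SD, n = 3). It was thus 1.74-fold lower in RAS cells than in control (adjusted p = 2.01e-10) and 1.64-fold higher in RAS/shDOT1L cells than in RAS cells (adjusted p = 3.36e-08). Neither DOT1L OE (-0.07 ± 0.07, adjusted p = 0.387) nor RAS/shDOT1L (-0.10 ± 0.07, adjusted p = 0.242) passed against control. When scaled by size alone, MDM2 passed as lower in RAS/shDOT1L than in control (-0.22, adjusted p = 0.0134). MDM4, a relative of MDM2 that blocks p53 without degrading it, was 1.54-fold lower in RAS (adjusted p = 0.0137) and 1.90-fold higher in the DOT1L OE cells than in control (adjusted p = 1.53e-06), with 0.36 ± 0.25 in RAS/shDOT1L against RAS (adjusted p = 0.231). PPM1D, a phosphatase that removes damage-induced phosphates from p53, was 1.44-fold lower in RAS (adjusted p = 0.00664) and 1.58-fold higher in RAS/shDOT1L cells than in RAS cells (adjusted p = 0.00145).

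CCNG1 encodes cyclin G1, a partner of a phosphatase that acts on MDM2 (chromosome 5, 163437569 to 163446151, plus strand, GRCh38). It stood at 106, 115 and 112 CPM in control cells, 78.5, 78.5 and 69.9 in RAS cells, 238, 245 and 249 in RAS/shDOT1L cells and 56.4, 56.1 and 57.6 in DOT1L OE cells. No pair of groups overlapped, with RAS/shDOT1L highest and DOT1L OE lowest. CCNG1 was 1.46-fold lower in RAS cells than in control (log2 change -0.55 ± 0.07 SE, adjusted p = 1.22e-08), 3.26-fold higher in RAS/shDOT1L cells than in RAS cells (1.71 ± 0.06, adjusted p = 2.69e-21) and 1.98-fold lower in DOT1L OE cells than in control (-0.99 ± 0.06, adjusted p = 7.14e-15). The fall of CCNG1 in RAS did not pass with the GC offset (-0.01, adjusted p = 0.937). TP53INP1, which promotes phosphorylation of p53 (chromosome 8, 94925972 to 94949378, minus strand), moved differently. It stood at 19.7, 19.0 and 17.1 CPM in control cells, 21.6, 16.9 and 11.8 in RAS cells, 9.07, 9.64 and 8.79 in RAS/shDOT1L cells and 52.1, 50.7 and 48.9 in DOT1L OE cells. The RAS libraries overlapped with control, the RAS/shDOT1L libraries lay below both, and the DOT1L OE libraries lay above all others. TP53INP1 was 1.80-fold lower in RAS/shDOT1L cells than in RAS cells (-0.85 ± 0.19, adjusted p = 0.000357) and 2.69-fold higher in the DOT1L OE cells than in control (1.43 ± 0.09, adjusted p = 8.55e-15). It shares 225 exon bases with NDUFAF6 on the opposite strand, whose 1473 counts stood beside 5408 of TP53INP1, and NDUFAF6 had a log2 change of -0.10 ± 0.20 in DOT1L OE.

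The 4 genes that act on the cell cycle or are stress kinases rose or did not pass in RAS/shDOT1L against RAS (3 higher, none lower), and 3 of the 4 fell in DOT1L OE. GADD45A, a stress sensor that binds cell cycle and repair proteins (chromosome 1, 67685201 to 67688334, plus strand), stood at 85.8, 79.0 and 81.8 CPM in control cells, 30.9, 35.9 and 37.0 in RAS cells, 109, 119 and 129 in RAS/shDOT1L cells and 31.9, 38.1 and 38.4 in DOT1L OE cells. RAS and DOT1L OE libraries were low and overlapped with each other, and RAS/shDOT1L lay above control. GADD45A was 2.36-fold lower in RAS cells than in control (-1.24 ± 0.08 SE, adjusted p = 1.15e-14), 3.48-fold higher in RAS/shDOT1L cells than in RAS cells (1.80 ± 0.09, adjusted p = 3.15e-18), 2.29-fold lower in DOT1L OE cells than in control (-1.20 ± 0.08, adjusted p = 1.06e-14) and 1.46-fold higher in RAS/shDOT1L cells than in control (0.55 ± 0.07, adjusted p = 1.16e-07). BTG2, an antiproliferative protein that promotes mRNA deadenylation (chromosome 1, 203305491 to 203309602, plus strand), stood at 19.8, 23.6 and 20.2 CPM in control cells, 18.6, 18.8 and 18.6 in RAS cells, 44.8, 42.8 and 45.6 in RAS/shDOT1L cells and 21.3, 19.4 and 19.4 in DOT1L OE cells. The RAS/shDOT1L libraries stood apart at a high level, while control and DOT1L OE overlapped. BTG2 was 2.41-fold higher in RAS/shDOT1L cells than in RAS cells (1.27 ± 0.11, adjusted p = 2.46e-11). Neither RAS (-0.17 ± 0.13, adjusted p = 0.246) nor DOT1L OE (-0.10 ± 0.11, adjusted p = 0.477) passed against control.

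The polo-like kinases PLK2 and PLK3, both induced by stress, differed from each other. PLK3 (chromosome 1, 44800377 to 44805990, plus strand) stood at 53.3, 57.7 and 52.0 CPM in control cells, 179, 174 and 183 in RAS cells, 174, 160 and 165 in RAS/shDOT1L cells and 41.8, 41.2 and 38.2 in DOT1L OE cells. It was high in both groups with the oncogene and lowest in DOT1L OE. PLK3 was 3.31-fold higher in RAS cells than in control (1.73 ± 0.06 SE, adjusted p = 4.85e-22), 1.36-fold lower in DOT1L OE (-0.44 ± 0.08, adjusted p = 1.36e-05), and did not pass between RAS/shDOT1L and RAS (-0.09 ± 0.06, adjusted p = 0.219). PLK2 stood at 131 ± 8.96 CPM in control cells, 87.9 ± 4.53 in RAS cells, 149 ± 2.31 in RAS/shDOT1L cells and 116 ± 1.01 in DOT1L OE cells (n = 3). It was 1.48-fold lower in RAS (adjusted p = 2.46e-09), 1.72-fold higher in RAS/shDOT1L cells than in RAS cells (adjusted p = 6.58e-12) and 1.14-fold lower in DOT1L OE (adjusted p = 0.00541).

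Of the 8 genes of the mitochondrial branch of apoptosis, 3 rose and 2 fell in RAS, 3 rose and 1 fell in RAS/shDOT1L against RAS, and 2 rose and 2 fell in DOT1L OE. BAX, which forms the pore in the outer mitochondrial membrane (chromosome 19, 48954815 to 48961798, plus strand), stood at 149, 143 and 146 CPM in control cells, 277, 304 and 311 in RAS cells, 315, 307 and 307 in RAS/shDOT1L cells and 132, 168 and 164 in DOT1L OE cells. Both oncogene groups were high and overlapped, and DOT1L OE overlapped with control. BAX was 2.05-fold higher in RAS cells than in control (1.03 ± 0.05 SE, adjusted p = 2.15e-18), with 0.08 ± 0.05 in RAS/shDOT1L against RAS (adjusted p = 0.234) and 0.07 ± 0.06 in DOT1L OE (adjusted p = 0.380). PMAIP1, the BH3-only protein NOXA, which antagonises MCL1 (chromosome 18, 59899996 to 59904305, plus strand), stood at 59.2, 56.8 and 55.4 CPM in control cells, 49.6, 50.0 and 49.1 in RAS cells, 149, 170 and 155 in RAS/shDOT1L cells and 51.7, 60.4 and 57.4 in DOT1L OE cells. Only the RAS/shDOT1L libraries were far from the rest. PMAIP1 was 3.23-fold higher in RAS/shDOT1L cells than in RAS cells (1.69 ± 0.07, adjusted p = 1.86e-19) and 2.80-fold higher than in control (1.48 ± 0.07, adjusted p = 7.55e-17), and 1.14-fold lower in RAS cells than in control (adjusted p = 0.0350). BBC3, the BH3-only protein PUMA, passed in none of the 4 comparisons (0.18 ± 0.16, 0.21 ± 0.17, 0.27 ± 0.14 and 0.38 ± 0.17 in RAS, RAS/shDOT1L against RAS, DOT1L OE, and RAS/shDOT1L against control).

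Of the other 5 genes of this branch, APAF1, the scaffold of the caspase-activating apoptosome, was 1.63-fold lower in RAS (adjusted p = 2.50e-06), 1.31-fold lower in DOT1L OE (adjusted p = 0.000671) and 2.05-fold lower in RAS/shDOT1L cells than in control (adjusted p = 9.41e-09). AEN, an exonuclease that cuts DNA in dying cells, stood at 88.4 ± 2.63 CPM in control cells, 131 ± 5.16 in RAS cells, 190 ± 4.05 in RAS/shDOT1L cells and 108 ± 4.38 in DOT1L OE cells (n = 3). It rose in all 4 comparisons. TRIAP1, a lipid carrier of mitochondria that restrains apoptosis, stood at 31.8 ± 1.05, 33.8 ± 0.833, 59.8 ± 0.612 and 40.0 ± 3.61 CPM. It was 1.79-fold higher in RAS/shDOT1L cells than in RAS cells (adjusted p = 2.86e-09). EI24, a membrane protein of the endoplasmic reticulum, was 1.44-fold lower in RAS/shDOT1L cells than in RAS cells (adjusted p = 7.54e-08) and 1.16-fold lower in DOT1L OE (adjusted p = 0.00274). PHLDA3, which keeps the kinase AKT from the membrane, was 1.16-fold higher in RAS cells than in control (adjusted p = 0.000178) and stood between 188 and 222 CPM in all group means.

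Each of the 3 death receptors was lower in DOT1L OE, beside 29.9% of all genes, and the group was not tested as such. FAS, the receptor of FAS ligand (chromosome 10, 88953813 to 89029605, plus strand), stood at 50.0, 49.2 and 57.0 CPM in control cells, 18.1, 20.6 and 14.2 in RAS cells, 45.7, 47.1 and 44.4 in RAS/shDOT1L cells and 27.4, 25.6 and 31.5 in DOT1L OE cells. RAS was lowest and DOT1L OE next, and neither overlapped with another group. FAS was 2.93-fold lower in RAS cells than in control (-1.55 ± 0.12 SE, adjusted p = 1.98e-13), 2.62-fold higher in RAS/shDOT1L cells than in RAS cells (1.39 ± 0.13, adjusted p = 2.82e-11) and 1.87-fold lower in DOT1L OE (-0.90 ± 0.09, adjusted p = 4.10e-10). FAS shares 387 exon bases with ACTA2, the smooth muscle actin on the opposite strand, which held 81729 counts beside 7768 of FAS. ACTA2 changed by -1.05, 1.27 and -1.82 on the log2 scale in the same comparisons, so its reads in the FAS counts cannot be told apart. FAS also shares 166 exon bases with STAMBPL1 on the same strand, which held 6694 counts and changed by 0.07, -0.19 and 0.91. TNFRSF10B, a receptor of TRAIL (chromosome 8, 23020133 to 23069031, minus strand), stood at 249, 255 and 254 CPM in control cells, 293, 312 and 313 in RAS cells, 70.1, 70.5 and 71.9 in RAS/shDOT1L cells and 151, 164 and 162 in DOT1L OE cells. No pair of groups overlapped, with RAS highest and RAS/shDOT1L lowest. TNFRSF10B was 1.22-fold higher in RAS (0.29 ± 0.04, adjusted p = 9.96e-07), 4.27-fold lower in RAS/shDOT1L cells than in RAS cells (-2.09 ± 0.06, adjusted p = 1.64e-24) and 1.60-fold lower in DOT1L OE cells than in control (-0.68 ± 0.05, adjusted p = 1.63e-13). The rise in RAS did not pass when libraries were scaled by their size alone. TNFRSF10B shares 377 exon bases with RHOBTB2 on the opposite strand, which held 3856 counts beside 42733 of TNFRSF10B. RHOBTB2 changed by 0.38, -0.71 and 0.86 on the log2 scale in the same comparisons. EDA2R, a receptor of ectodysplasin, was 1.46-fold lower in RAS (adjusted p = 0.00503), 1.71-fold higher in RAS/shDOT1L cells than in RAS cells (adjusted p = 0.000385) and 1.62-fold lower in DOT1L OE (adjusted p = 6.38e-05).

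Of the 5 genes of DNA repair and nucleotide supply, 1 rose and 3 fell in RAS, 3 rose and 1 fell in RAS/shDOT1L against RAS, and 1 rose and 4 fell in DOT1L OE. RRM2B, the p53-inducible subunit of ribonucleotide reductase (chromosome 8, 102204502 to 102238961, minus strand), stood at 123, 118 and 109 CPM in control cells, 82.0, 78.1 and 82.8 in RAS cells, 89.4, 104 and 111 in RAS/shDOT1L cells and 37.8, 37.8 and 31.9 in DOT1L OE cells. The DOT1L OE libraries lay far below all others, RAS lay below control, and RAS/shDOT1L overlapped with control. RRM2B was 3.29-fold lower in DOT1L OE cells than in control (-1.72 ± 0.07 SE, adjusted p = 2.00e-19), 1.43-fold lower in RAS (-0.52 ± 0.06, adjusted p = 2.02e-08) and 1.27-fold higher in RAS/shDOT1L cells than in RAS cells (0.34 ± 0.08, adjusted p = 0.000362). With the GC offset, RRM2B passed neither in RAS (0.10, adjusted p = 0.192) nor in RAS/shDOT1L against RAS (-0.06, adjusted p = 0.541). XPC and DDB2 recognise damage in nucleotide excision repair. XPC was 1.55-fold higher in DOT1L OE (adjusted p = 6.51e-07) and did not pass in the other comparisons, at 0.02 ± 0.12 in RAS, 0.17 ± 0.13 in RAS/shDOT1L against RAS and 0.18 ± 0.12 in RAS/shDOT1L against control. DDB2, whose promoter holds the paired site above, moved little, by 1.14-fold up in RAS (adjusted p = 0.0439), 1.28-fold down in RAS/shDOT1L against RAS (adjusted p = 0.000999) and 1.13-fold down in DOT1L OE (adjusted p = 0.0397). POLH, the polymerase that copies past ultraviolet lesions, was 1.77-fold lower in RAS (adjusted p = 8.89e-10), 1.48-fold higher in RAS/shDOT1L cells than in RAS cells (adjusted p = 2.42e-05) and 1.72-fold lower in DOT1L OE (adjusted p = 2.51e-10). It shares 261 exon bases with GTPBP2 on the opposite strand, which held 13556 counts beside 9476 of POLH and changed by 0.79, -0.83 and -0.06 on the log2 scale. ASCC3, a helicase in the repair of alkylated DNA, was 1.79-fold lower in RAS (adjusted p = 6.57e-14), 1.30-fold higher in RAS/shDOT1L cells than in RAS cells (adjusted p = 2.48e-05) and 1.26-fold lower in DOT1L OE (adjusted p = 2.20e-06).

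Among the 5 metabolic and redox targets, 4 fell in DOT1L OE and none rose. The sestrins SESN1 and SESN2 restrain mTOR signalling when nutrients or DNA integrity fail. SESN1 (chromosome 6, 108984309 to 109094846, minus strand) stood at 21.4, 22.7 and 19.8 CPM in control cells, 10.9, 9.90 and 8.73 in RAS cells, 24.1, 28.6 and 23.7 in RAS/shDOT1L cells and 10.0, 8.18 and 8.49 in DOT1L OE cells. The RAS and DOT1L OE libraries were low and overlapped. Every RAS/shDOT1L library lay above control, though this change (log2 change 0.27) did not pass. SESN1 was 2.15-fold lower in RAS cells than in control (-1.10 ± 0.15 SE, adjusted p = 9.11e-08), 2.62-fold higher in RAS/shDOT1L cells than in RAS cells (1.39 ± 0.16, adjusted p = 3.54e-09) and 2.42-fold lower in DOT1L OE (-1.28 ± 0.13, adjusted p = 5.08e-10). SESN2 (chromosome 1, 28259518 to 28282491, plus strand) stood at 64.6, 63.6 and 62.8 CPM in control cells, 73.4, 78.8 and 81.2 in RAS cells, 88.6, 88.9 and 88.1 in RAS/shDOT1L cells and 31.3, 35.8 and 29.3 in DOT1L OE cells. Its RAS libraries lay above control and its DOT1L OE libraries lowest, with no overlap between any groups. SESN2 was 2.00-fold lower in DOT1L OE (-1.00 ± 0.08, adjusted p = 2.89e-12), 1.23-fold higher in RAS (0.30 ± 0.07, adjusted p = 0.000476) and 1.15-fold higher in RAS/shDOT1L cells than in RAS cells (0.20 ± 0.07, adjusted p = 0.0205). In RAS, SESN2 did not pass when scaled by size alone (0.10, adjusted p = 0.214) and passed as lower with the GC offset (-0.19, adjusted p = 0.0277), the direction of SESN1.

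TIGAR, which lowers glycolytic flux by removing fructose bisphosphate (chromosome 12, 4307763 to 4360028, plus strand), stood at 58.5, 49.1 and 57.5 CPM in control cells, 41.2, 45.5 and 40.9 in RAS cells, 58.0, 59.3 and 53.7 in RAS/shDOT1L cells and 25.9, 26.7 and 26.1 in DOT1L OE cells. DOT1L OE was lowest without overlap, RAS lay below control, and RAS/shDOT1L overlapped with control. TIGAR was 2.12-fold lower in DOT1L OE cells than in control (-1.08 ± 0.09 SE, adjusted p = 1.91e-12), 1.28-fold lower in RAS (-0.36 ± 0.09, adjusted p = 0.000722) and 1.36-fold higher in RAS/shDOT1L cells than in RAS cells (0.44 ± 0.09, adjusted p = 0.000162). With the GC offset, TIGAR passed neither in RAS (0.05, adjusted p = 0.691) nor in RAS/shDOT1L against RAS (0.18, adjusted p = 0.114). FDXR, the reductase that feeds electrons to mitochondrial ferredoxin, was 1.69-fold lower in DOT1L OE (adjusted p = 6.94e-08) and 1.58-fold lower in RAS/shDOT1L cells than in RAS cells (adjusted p = 1.68e-05), with 0.03 ± 0.10 in RAS (adjusted p = 0.834). TP53I3, a quinone oxidoreductase, was 1.25-fold higher in RAS cells than in control (adjusted p = 0.00128) and did not pass in DOT1L OE (-0.10 ± 0.08, adjusted p = 0.291) or between RAS/shDOT1L and RAS (0.01 ± 0.09, adjusted p = 0.941).

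The 4 remaining members act in autophagy, mitochondrial quality control or RNA processing, or have a less settled role. ZMAT3, an RNA-binding protein that affects splicing, stood at 176 ± 4.58 CPM in control cells, 87.9 ± 7.77 in RAS cells, 82.9 ± 5.80 in RAS/shDOT1L cells and 92.9 ± 2.03 in DOT1L OE cells (n = 3). It was 1.99-fold lower in RAS (adjusted p = 1.35e-15) and 1.91-fold lower in DOT1L OE cells than in control (adjusted p = 5.14e-16), with -0.07 ± 0.08 in RAS/shDOT1L against RAS (adjusted p = 0.497). DRAM1, a lysosomal protein that promotes autophagy, was 1.83-fold lower in RAS (adjusted p = 5.64e-12), 1.20-fold higher in RAS/shDOT1L cells than in RAS cells (adjusted p = 0.0147) and 1.51-fold lower in DOT1L OE (adjusted p = 4.77e-09). SPATA18, which acts in the repair and removal of mitochondria, was 1.76-fold lower in DOT1L OE (adjusted p = 2.08e-05). SUSD6, a membrane protein with a sushi domain (chromosome 14, 69611596 to 69715144, plus strand), stood at 33.7, 35.0 and 27.7 CPM in control cells, 103, 106 and 103 in RAS cells, 49.5, 52.8 and 40.7 in RAS/shDOT1L cells and 54.7, 53.4 and 51.9 in DOT1L OE cells. Every library of the other groups lay above control, with RAS highest by far and RAS/shDOT1L and DOT1L OE overlapping. SUSD6 was 3.26-fold higher in RAS cells than in control (1.71 ± 0.08 SE, adjusted p = 1.46e-18), 2.15-fold lower in RAS/shDOT1L cells than in RAS cells (-1.11 ± 0.09, adjusted p = 7.26e-13) and 1.65-fold higher in the DOT1L OE cells (0.72 ± 0.09, adjusted p = 1.79e-08).

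**Figure D4:**
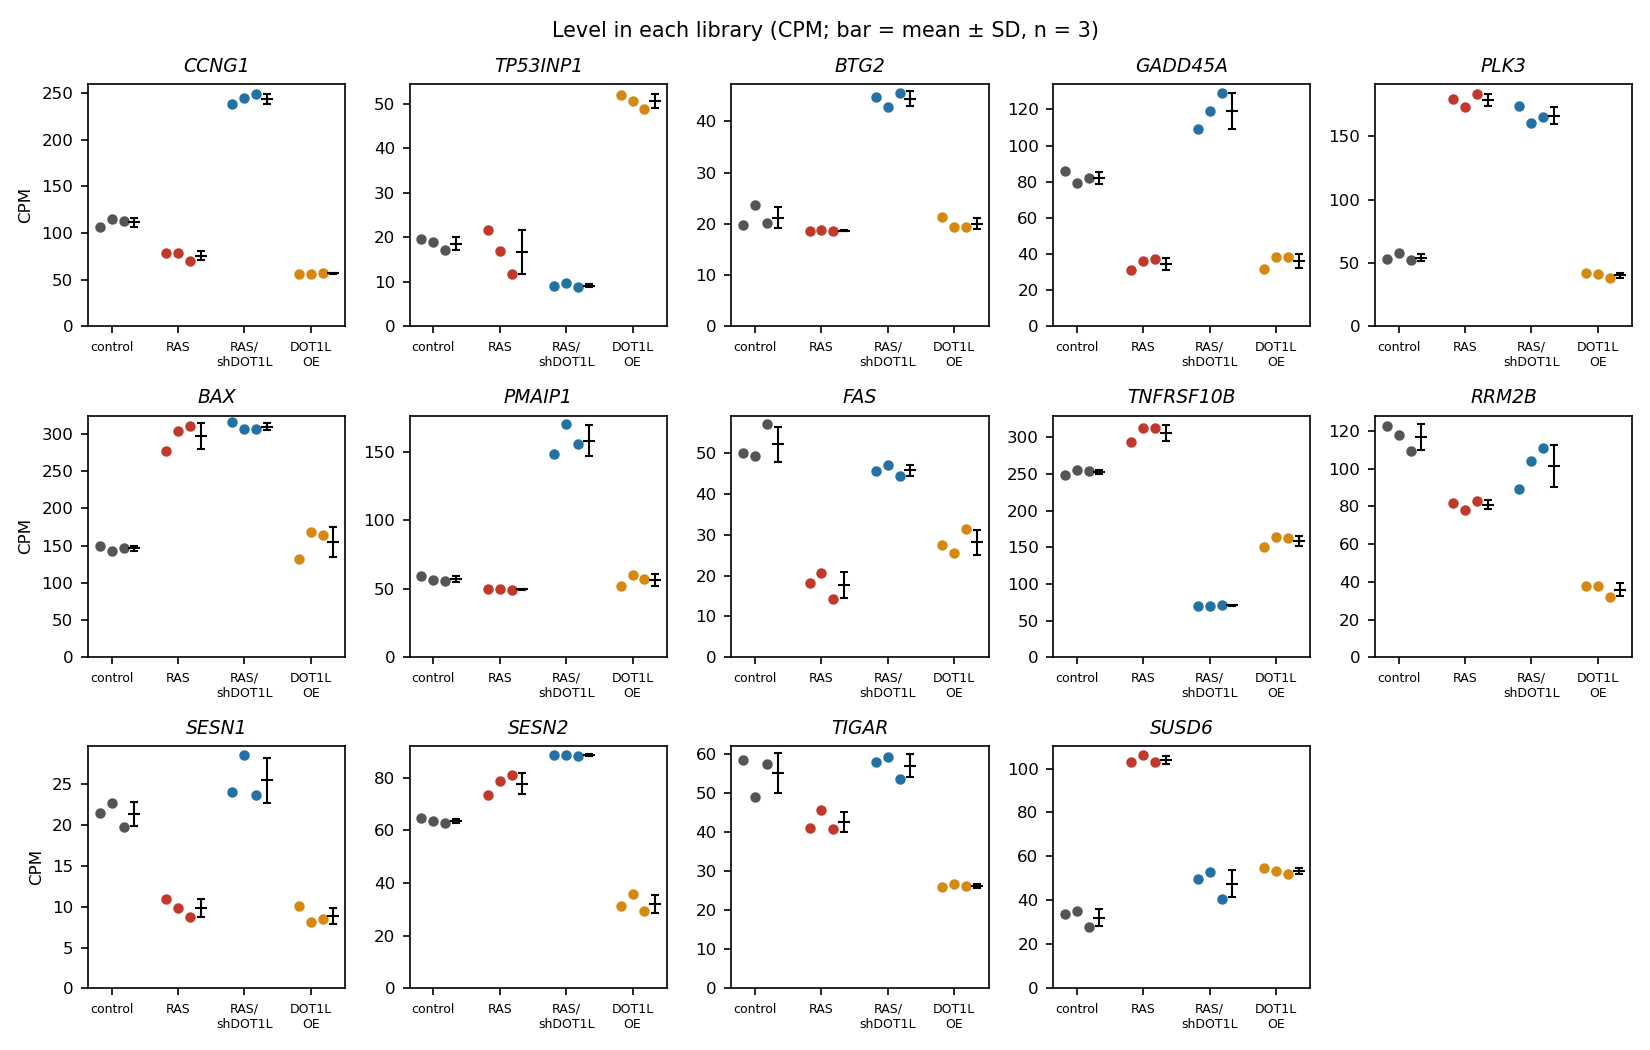
Level in CPM of the 14 members that passed the test with a change of at least 2-fold in RAS against control, RAS/shDOT1L against RAS or DOT1L OE against control, 1 point per library, with the mean and SD of 3 libraries beside each group and every axis starting at 0. GADD45A, FAS and SESN1 are low in RAS and DOT1L OE, PLK3 and BAX are high in both groups with the oncogene, and TNFRSF10B is lowest in RAS/shDOT1L.

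The GC content of a transcript moved with these changes. All genes in the lowest 10% by GC content had a median log2 change of -0.62 in RAS and those in the highest 10% 0.58, against 0.39 and -0.43 in RAS/shDOT1L against RAS and -0.20 and 0.13 in DOT1L OE. Members that fell in RAS had a median GC content of 41.4% (35.1% to 50.7%), and members that rose 58.9% (49.7% to 60.8%). Members higher in RAS/shDOT1L than in RAS had a median of 43.6%, and those lower 50.8%. When the GC trend of each library was entered as an offset, 8 members were higher and 15 lower in RAS against control, 19 and 7 in RAS/shDOT1L against RAS, and 7 and 20 in DOT1L OE. Among all genes tested, rises made up 50.9%, 49.3% and 49.9% of the calls under that offset, in the same order. In RAS against control, PMAIP1 (0.40), PHLDA3 (-0.24) and SESN2 (-0.19) passed in the opposite direction, and CCNG1 (-0.01), RRM2B (0.10), TIGAR (0.05), MDM4 (-0.25), PPM1D (-0.12), EDA2R (-0.36), DDB2 (-0.01) and TP53I3 (-0.16) no longer passed. BBC3 (-0.45), FDXR (-0.53), BTG2 (-0.33), EI24 (0.16) and TRIAP1 (0.25) came to pass in RAS, and MDM2 (-0.31), BAX (0.58), ZMAT3 (-0.47), SESN1 (-0.65), ASCC3 (-0.33) and APAF1 (-0.31) kept their call at a smaller change. In RAS/shDOT1L against RAS, RRM2B (-0.06), TIGAR (0.18), ASCC3 (0.07), DRAM1 (0.12) and FDXR (-0.27) no longer passed, while BBC3 (0.68), BAX (0.35), PLK3 (0.27), PHLDA3 (0.24), TP53I3 (0.31), APAF1 (-0.58) and ZMAT3 (-0.41) came to pass. In DOT1L OE, PMAIP1 (0.17) came to pass as higher. In RAS/shDOT1L against control, PHLDA3 (0.02), RRM2B (0.06) and TP53I3 (0.16) no longer passed, and DDB2 (-0.22), SESN1 (0.44) and TIGAR (0.23) came to pass. Of the members named with a change past 2-fold in RAS against control, GADD45A (-1.40), FAS (-1.16), PLK3 (1.20) and SUSD6 (1.48) stayed past it. The part of GC content in the results was not tested beyond this offset.

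**Figure D5:**
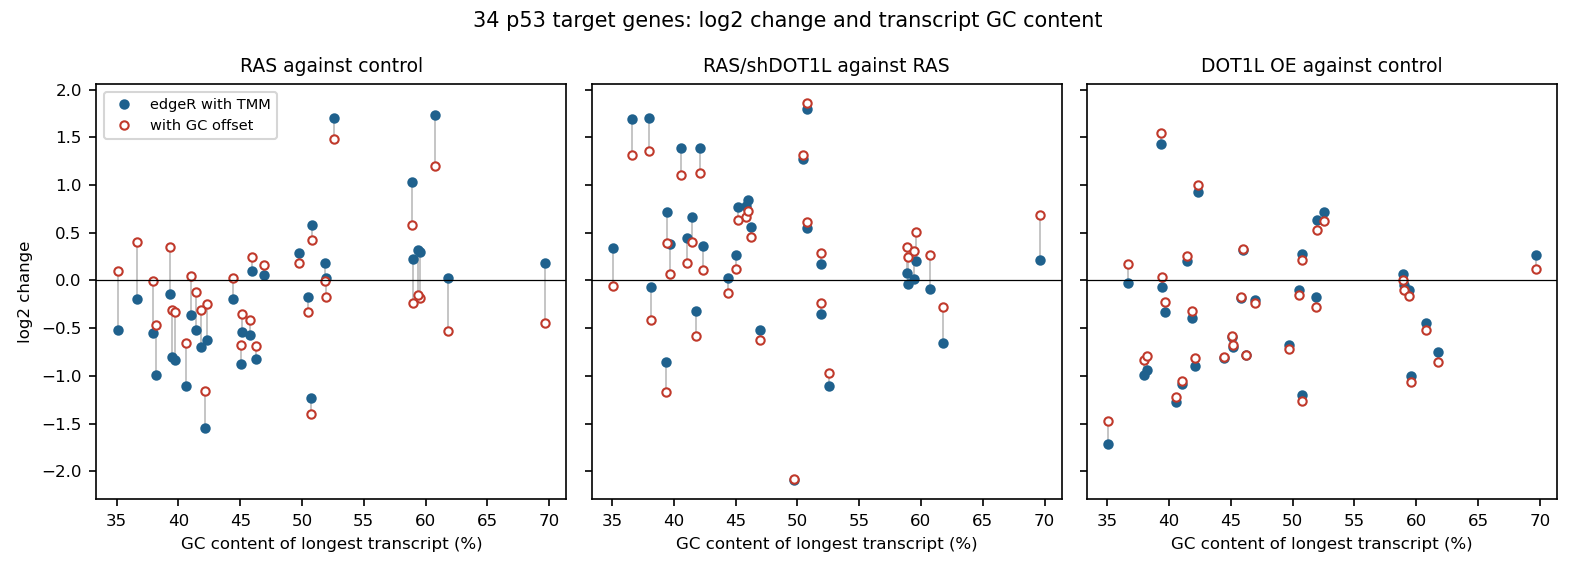
The log2 change of the 34 genes against the GC content of the longest transcript (in percent) in 3 comparisons, with filled points from edgeR with TMM scaling and open points from the fit with a GC offset, joined for each gene. In RAS against control the offset moves low-GC genes up and high-GC genes down, and in RAS/shDOT1L against RAS it does the opposite. In DOT1L OE against control most genes move less than in RAS against control, though RRM2B goes from -1.72 to -1.47 and PMAIP1 from -0.03 to 0.17.

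A further list of 36 p53 targets outside the 34 was followed beside them. Of those tested, 15 rose and 10 fell of 33 in RAS against control, 12 rose and 12 fell of 32 in RAS/shDOT1L against RAS, 5 rose and 14 fell of 33 in DOT1L OE, and 15 rose and 8 fell of 33 in RAS/shDOT1L against control. In shares, 45.5% rose and 30.3% fell in RAS beside 31.9% and 32.0% of all genes, 37.5% and 37.5% in RAS/shDOT1L against RAS beside 26.3% and 26.4%, 15.2% and 42.4% in DOT1L OE beside 29.9% and 29.9%, and 45.5% and 24.2% in RAS/shDOT1L against control beside 27.9% and 27.6%. GDF15, a stress-induced cytokine, was 10.1-fold higher in RAS cells than in control, 4.19-fold lower in RAS/shDOT1L cells than in RAS cells and 2.25-fold higher in DOT1L OE. LIF, a cytokine of the interleukin-6 family, was 17.6-fold higher in RAS and 17.4-fold lower in RAS/shDOT1L cells than in RAS cells, with -0.07 ± 0.15 in DOT1L OE (adjusted p = 0.725). TRIM22, an antiviral ubiquitin ligase that interferon also induces, was 5.81-fold lower in RAS and 4.86-fold lower in DOT1L OE cells than in control. RPS27L, a ribosomal protein paralog, was 1.96-fold higher in RAS/shDOT1L cells than in RAS cells and 1.85-fold lower in DOT1L OE cells than in control.

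The list of 19 regulators and relatives of p53 had 17 genes tested in each comparison, since TP63 and TP73 did not pass the filter on low counts. In RAS against control 4 rose and 6 fell, in RAS/shDOT1L against RAS 3 rose and 7 fell, in DOT1L OE 8 rose and 5 fell, and in RAS/shDOT1L against control 1 rose and 9 fell. The shares were 23.5% and 35.3% in RAS, 17.6% and 41.2% in RAS/shDOT1L against RAS, 47.1% and 29.4% in DOT1L OE and 5.88% and 52.9% in RAS/shDOT1L against control, beside the same shares of all genes. CDKN2A, whose ARF product holds MDM2 back, was 1.98-fold higher in RAS and 2.37-fold lower in DOT1L OE cells than in control, with 0.20 ± 0.09 in RAS/shDOT1L against RAS (adjusted p = 0.0523). Counts are per gene, so the ARF transcript was not told apart from the others of CDKN2A. PRKDC, the catalytic subunit of the DNA-dependent protein kinase, was 1.45-fold lower in RAS. DAXX, a histone chaperone that binds MDM2, was 1.35-fold higher in RAS and 1.38-fold lower in RAS/shDOT1L cells than in RAS cells. HIPK2, a kinase of p53, was 2.03-fold lower in RAS/shDOT1L cells than in RAS cells, and USP7, which removes ubiquitin from MDM2 and p53, 2.15-fold lower. The acetyltransferase CREBBP was 2.03-fold and the deacetylase SIRT1, which acts on p53, 2.54-fold higher in DOT1L OE cells than in control.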

How the data were processed

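RNA sequencing of the 12 libraries was deposited by the authors as whole-number counts per Ensembl gene ID, not normalized. Per the study's methods, poly(A) RNA was read as pairs and aligned and counted per gene by STAR. The submitters' processing notes name STAR 2.6.1, DESeq2 2 and GRCh38. The strand setting is not given in the sources used here. Groups came from the labels, and the members and all gene lists were chosen with earlier results of these data known.

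Tests used edgeR 4.0.16 (R 4.3.3) on the deposited counts (filterByExpr, TMM scaling, two-sided quasi-likelihood F test on the 6 libraries of a comparison). Genes were called at a Benjamini-Hochberg adjusted p under 0.05 over all genes tested. The SE is the size of the log2 change over the square root of F. CPM used TMM-scaled library sizes over all 12 libraries. FPKM divided CPM by the length in kilobases of all annotated exons of a gene together (GENCODE release 44, also the source of coordinates and transcript GC content). On simulated counts for RAS against control (13554 genes), 67, 67 and 66 genes were changed by 1.5-fold, 2-fold and 4-fold. Of these, 52.2%, 68.7% and 93.9% were recovered, and 6.54% of calls were false. The false share was 4.38% in RAS/shDOT1L against RAS, 4.46% in DOT1L OE against control and 4.14% in RAS/shDOT1L against control. In the data 64.0% of genes were called in RAS against control, far more than were changed here, so these rates do not carry over to the calls above.

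Every member is named. Values per library are given for members past the test with a log2 change of at least 1 in size in RAS against control, RAS/shDOT1L against RAS or DOT1L OE against control, and for CDKN1A. A withheld gene planned beside them is not reported here and was taken out of the list of regulators. From the other p53 targets and the regulators, the 3 genes with the smallest p in each of these comparisons are named. The marker lists (fibroblast, epithelial, endothelial and immune) are given as sums. Settings tried beside these were size factors from DESeq2, scaling by library size alone, a filter of only 1 count in all, a filter asking for CPM of 1 in 3 libraries, DESeq2 1.42.0 (Wald test), limma-voom 3.58.1, a joint fit of the 12 libraries, replicate number as a block, an offset for each library's GC trend (20 bins), block and offset together, and omission of each library in turn. No library was a copy of another, since within groups the chi-square per degree of freedom between libraries was 4.33 to 7.87.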

Additional observations from a re-analysis of the deposited data

How the results depend on the processing

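Same-numbered libraries did not deviate together over the genes that passed the filter (correlations of -0.019 to 0.027). A link limited to some genes could be missed this way, so a pairing is not excluded. With the replicate number as a block, 8 of the 34 genes were higher and 17 lower in RAS against control, 18 and 6 in RAS/shDOT1L against RAS, 6 and 19 in DOT1L OE against control, and 14 and 10 in RAS/shDOT1L against control. Among all genes tested, rises made up 49.9%, 49.4%, 50.1% and 50.0% of the calls under the block, in the same order. The replicate block changed the call of DDB2 in RAS (0.18, adjusted p = 0.0601) and DOT1L OE (-0.18, adjusted p = 0.0505) and of BBC3 in RAS/shDOT1L against control (0.38, adjusted p = 0.0427), and no other member's call.

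With library size as the only scaling, 4 members were called higher in RAS, and the members' median log2 change became -0.39 in RAS, 0.37 in RAS/shDOT1L against RAS, -0.19 in DOT1L OE and 0.031 in RAS/shDOT1L against control. Leaving out 1 library gave medians of -0.29 to -0.19, 0.27 to 0.31, -0.32 to -0.24 and 0.080 to 0.17 in the same order. The same scaling turned the direction of BBC3 (-0.013), EI24 (-0.14), TRIAP1 (-0.10), XPC (-0.18), DDB2 (-0.015) and FDXR (-0.17) in RAS, PHLDA3 (0.031) and ZMAT3 (0.0026) in RAS/shDOT1L against RAS, MDM2 (0.0085), PMAIP1 (0.051) and PHLDA3 (0.034) in DOT1L OE, and TIGAR (-0.051) in RAS/shDOT1L against control.

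The GC offset alone, and then with the replicate block, turned the direction in RAS of TP53INP1 (0.35, 0.32), BBC3 (-0.45, -0.44), PMAIP1 (0.40, 0.40), PHLDA3 (-0.24, -0.24), XPC (-0.17, -0.17), DDB2 (-0.0089, -0.0086), RRM2B (0.10, 0.10), SESN2 (-0.19, -0.19), TIGAR (0.046, 0.048), FDXR (-0.53, -0.53), TP53I3 (-0.16, -0.16) and SPATA18 (0.028, 0.052). In RAS/shDOT1L against RAS it turned PLK3 (0.27, 0.27), PHLDA3 (0.24, 0.24), RRM2B (-0.061, -0.064) and SPATA18 (-0.14, -0.14), in DOT1L OE MDM2 (0.040, 0.039) and PMAIP1 (0.17, 0.17), and in RAS/shDOT1L against control MDM2 (0.077, 0.078) and RRM2B (0.064, 0.062). TP53I3 in RAS/shDOT1L against RAS, near 0, turned with DESeq2 size factors (-0.0014), no filter beyond 1 count (-0.0020), the DESeq2 Wald test (-0.0014) and 1 fit over all 12 libraries (-0.0088).

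Leaving out 1 library turned members that had not passed. In RAS these were EI24 (-0.0079 to 0.11), XPC (-0.016 to 0.079), FDXR (-0.034 to 0.10) and TP53INP1 (-0.36 to 0.058). In RAS/shDOT1L against RAS they were ZMAT3 (-0.12 to 0.0035), TP53I3 (-0.054 to 0.061) and SPATA18 (-0.067 to 0.076), in DOT1L OE PMAIP1 (-0.071 to 0.037) and PHLDA3 (-0.11 to 0.041), and in RAS/shDOT1L against control TIGAR (-0.014 to 0.11).

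The cause of these changes was not tested. The CPM filter and limma-voom changed no member's call. DESeq2 size factors, the DESeq2 Wald test, the absence of a filter and the fit over all 12 libraries changed those of PMAIP1, DDB2, APAF1, RRM2B or BBC3, each in at least 1 comparison, and of no other member.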
